A study of Homo sapiens with 24 samples.

Results

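The genes described here were 31 genes of a zinc finger gene cluster on chromosome 19q13.12, taken from the 60641 gene symbols that all libraries share. They were chosen by name as the zinc finger genes of the cluster together with ZNF790-AS1, a long noncoding RNA. The cluster had drawn attention because ZNF790-AS1 was far more abundant in A549 MSTRG.2513.6 KO than in A549 WT B, so the values of that comparison are given as a description without a test. Apart from ZNF790-AS1 and the pseudogene ZNF781, the list was positional, because it held all 29 protein-coding genes of the interval whose symbols start with ZNF or ZFP, HKR1 included under its other symbol, ZNF875. The data were RNA-seq gene counts of 24 libraries in 8 groups of 3, from 2 human cancer lines. A549 was derived from a lung adenocarcinoma and HCT116 from a colorectal carcinoma. In the knockouts (KOs), CRISPR/Cas9 had removed the DNA-binding domain (DBD) of an lncRNA, the stretch predicted to pair with genomic DNA. In A549 the wild type (WT B) stood beside KOs of MSTRG.2513.6 and MSTRG.4401.1. HCT116 had KOs of the same transcripts with its own WT B, and a KO of MSTRG.34636.7 with WT A, which were the libraries numbered 1A to 3A. No drug, dose or time course was part of these groups. The labels do not say whether a KO was a single clone, whether the 3 libraries of a group were separate cultures, or which wild type belongs to which KO, so p-values measure the spread between these libraries, which may be technical. The MSTRG transcripts have no row of their own in the gene counts, so the deletions could not be checked.

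Most genes of the cluster encode Krüppel-type C2H2 zinc finger proteins with a KRAB domain. Such proteins bind DNA through arrays of zinc fingers, and the KRAB domain recruits TRIM28, which brings in the histone H3K9 methyltransferase SETDB1 and other silencing factors, often at transposable elements. These genes expanded by tandem duplication in primates and other mammals and lie side by side in large clusters, many of them on chromosome 19, and their own promoters can be silenced in tumour cells by DNA methylation. ZNF146, ZNF260 and ZNF345 are zinc finger proteins without a KRAB domain. ZNF568 is known through its mouse counterpart as a repressor of the placental promoter of IGF2, and ZNF420 as a repressor of p53 target genes.

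The 31 genes spanned 1.635 Mb of GRCh38, from chr19:36182276-37817300, and started with ZNF565 and ended with ZNF573. Of these genes, 12 shared exon bases with another member in the annotation. ZNF790-AS1 and ZNF790, which lie on opposite strands, shared 60 bp, ZFP30 and ZNF540 shared 117 bp, and ZNF565 and ZNF146 shared 446 bp. The use of the strand in counting is not given in the sources used here, so reads of such partners may have been mixed. In 4 pairs the start sites of neighbours on opposite strands lay within 1 kb. These were ZNF529 and ZNF382 at 459 bp, ZNF790 and ZNF345 at 426 bp, ZNF829 and ZNF568 at 25 bp, and ZNF585B and ZNF383 at 227 bp.

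The 250 bases before the annotated start sites were read for the 28 members with an entry in the RefSeq promoter table (GRCh38.p14), which gave 49 windows. They are shown because many members shared a word there. GGGAAATGTAGT, read on either strand, was the word of 12 letters found in the most members and stood in at least 1 window of 11 of the 28 members (39.3%). The word stood in 21 of 499 other ZNF and ZFP genes (4.21%) and in 92 of 26778 genes of other names (0.344%). The word was picked for its count among the members, so these shares are a description. The 11 genes were ZNF146, ZNF260, ZNF567, ZNF850, ZNF790, ZNF829, ZNF568, ZNF420, ZNF569, ZNF540 and ZNF573, and they held 11 distinct sites, of which ZNF829 and ZNF568 shared 1 and ZNF420 had 2. In the sequences that follow, each given 5′ to 3′ on the strand of its gene, capitals mark this word or its reverse complement ACTACATTTCCC. For ZNF790, with 3 windows, and ZNF420, with 2, the window that holds the word is given, and for the others the most upstream one. In ZNF790-AS1, which lacks the word, capitals mark CCAAT or its reverse complement, which stood in 32% of all windows and in 24.5% of those of the members.
ZNF790-AS1, chr19:36797313-36797562, plus strand: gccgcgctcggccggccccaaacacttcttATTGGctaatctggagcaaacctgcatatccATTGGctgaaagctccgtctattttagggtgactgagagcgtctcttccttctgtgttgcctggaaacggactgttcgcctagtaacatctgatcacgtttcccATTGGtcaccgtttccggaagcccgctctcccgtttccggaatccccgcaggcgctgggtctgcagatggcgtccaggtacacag
ZNF790, chr19:36838388-36838637, minus strand: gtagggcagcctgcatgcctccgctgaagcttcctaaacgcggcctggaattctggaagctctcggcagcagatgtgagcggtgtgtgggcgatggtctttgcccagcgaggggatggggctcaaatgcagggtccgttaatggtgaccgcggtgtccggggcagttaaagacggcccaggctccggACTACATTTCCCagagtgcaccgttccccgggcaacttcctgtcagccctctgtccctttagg
ZNF568, chr19:36916082-36916331, plus strand: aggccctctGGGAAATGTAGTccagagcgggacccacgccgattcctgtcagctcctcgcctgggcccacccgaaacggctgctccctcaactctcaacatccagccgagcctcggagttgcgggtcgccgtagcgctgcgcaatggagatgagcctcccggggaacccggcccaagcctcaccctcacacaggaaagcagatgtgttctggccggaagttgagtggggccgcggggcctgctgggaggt
ZNF420, chr19:37078183-37078432, plus strand: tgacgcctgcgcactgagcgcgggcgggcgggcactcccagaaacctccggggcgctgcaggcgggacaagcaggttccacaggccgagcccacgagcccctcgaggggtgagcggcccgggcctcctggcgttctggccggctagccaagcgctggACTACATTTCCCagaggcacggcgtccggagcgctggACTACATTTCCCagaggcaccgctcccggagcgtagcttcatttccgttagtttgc
ZNF850, chr19:36772808-36773057, minus strand: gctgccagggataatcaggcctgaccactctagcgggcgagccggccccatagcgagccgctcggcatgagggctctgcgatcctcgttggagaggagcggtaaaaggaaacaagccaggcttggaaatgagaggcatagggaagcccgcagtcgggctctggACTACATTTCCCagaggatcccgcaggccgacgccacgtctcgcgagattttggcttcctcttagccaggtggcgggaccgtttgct
ZNF260, chr19:36528272-36528521, minus strand: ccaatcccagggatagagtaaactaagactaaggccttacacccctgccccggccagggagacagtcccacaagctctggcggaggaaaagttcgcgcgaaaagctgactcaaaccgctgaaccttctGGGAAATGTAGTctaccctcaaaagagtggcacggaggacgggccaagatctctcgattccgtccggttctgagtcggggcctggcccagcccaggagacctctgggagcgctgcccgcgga
ZNF529, chr19:36605258-36605507, minus strand: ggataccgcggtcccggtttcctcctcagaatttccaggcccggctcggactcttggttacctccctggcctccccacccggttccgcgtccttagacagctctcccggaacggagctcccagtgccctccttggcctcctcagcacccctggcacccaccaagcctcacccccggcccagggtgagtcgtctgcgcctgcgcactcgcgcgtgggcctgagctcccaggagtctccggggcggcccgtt
ZFP30, chr19:37656262-37656511, minus strand: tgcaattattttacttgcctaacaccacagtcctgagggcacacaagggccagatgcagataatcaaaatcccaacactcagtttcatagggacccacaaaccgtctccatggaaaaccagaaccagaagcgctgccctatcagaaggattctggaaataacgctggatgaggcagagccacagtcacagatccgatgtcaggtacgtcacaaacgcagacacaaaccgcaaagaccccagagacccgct
These windows precede RefSeq start sites of genes that the results turn on, ZNF529 and ZFP30 among them without either word. The windows of ZFP30, ZNF420 and ZNF790 lie inside these genes as placed by GENCODE, which was used for the positions above. In GENCODE these genes start at chr19:37692337, chr19:37007857 and chr19:36850787. The windows of the members held a median of 18 CpG dinucleotides against 11 over all 35116 windows, and the RefSeq window of ZFP30 held 8. No methylation was measured, and a shared word says nothing here about which factor binds it.

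Total counts ran from 25799359 to 102261808 per library. Levels are given as CPM, counts scaled to a library total of 1000000, and 3 counts correspond to 0.116 and 0.0293 CPM in these libraries. Libraries S8 and S9, labelled HCT116 MSTRG.2513.6 KO, stood apart from their group in marker genes. AKR1B10, an aldo-keto reductase abundant in A549, was at 2264 to 2289 CPM in them and at 1986 to 2086 CPM in A549 WT B, against 0.605 CPM in S11 of their own group and 0.699 to 1.81 CPM in HCT116 WT B. CDX2, a transcription factor of intestinal cells, was at 0.406 to 0.636 CPM in S8 and S9, at 18.2 CPM in S11 and at 18.2 to 19.4 CPM in HCT116 WT B. Of the 6 A549 markers listed, 5 were higher in every A549 WT B library than in every HCT116 WT B library, SFTPB being near 1 CPM in both lines. Of the 5 listed for HCT116, CDX2 and CDKN2A were higher in HCT116, CDX1 was at 0 CPM and LGR5 at or near 0 CPM in both lines, and CDH17 was higher in A549. In the library labelled S8, the median absolute difference over the 31 genes from the mean of A549 MSTRG.2513.6 KO was 0.14 on the log2(CPM + 0.1) scale, and no gene differed by more than 1. The same measure against HCT116 WT B was 1.48, with 21 genes over 1. For S9 the values were 0.14 with 1 gene and 1.56 with 21 genes. S11 lay 0.22 from HCT116 WT B. Both libraries keep their labels here. The calls of their group against WT B are given with and without them, while the fit of all HCT116 libraries together includes them.

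In wild-type cells, the summed level of the cluster was higher in A549 than in HCT116. The 31 genes summed to 306 ± 19.5 CPM in A549 WT B (SD, n = 3) and to 150 ± 2.54 CPM in HCT116 WT B, and the libraries did not overlap. Of the 25 genes tested, 16 were higher in A549 and 1, ZNF607, was lower, at an adjusted p (FDR) under 0.1 and an absolute log2(fold change) over 1 in edgeR's quasi-likelihood test. Over all genes tested, 17.2% were called higher in A549, 18.5% lower and 35.7% in either direction. The median log2(fold change) of the tested members was 1.38, against -0.02 for all genes. The neighbouring genes were also higher in A549 by their medians. In the 1 Mb on the ZNF565 side 13 of 44 genes were called higher and 6 lower, with a median of 0.83, and in the 1 Mb on the ZNF573 side 11 of 22 were called higher and 3 lower, with a median of 0.99. These WT B libraries also served as the controls of the KO comparisons.

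Several genes had no reads, or far fewer, in the HCT116 wild types than in A549 WT B. In these bulk libraries, fewer expressing cells and less RNA per cell cannot be told apart. ZNF260 was at 27.9, 34.9 and 32.7 CPM in the A549 WT B libraries S20, S21 and S22, and no read was counted in HCT116 WT B or WT A, which makes it at least 620.8-fold higher in A549 when 3 counts are put in each HCT116 library. ZNF529 was at 10.1, 13.8 and 13.3 CPM and at least 241.4-fold higher. All HCT116 wild-type libraries were at 0 for both. ZFP82 (4.72, 5.01 and 5.20 CPM), ZNF570 (3.43, 5.57 and 5.08 CPM) and ZNF568 (0.764, 1.08 and 0.674 CPM) were also at 0 in all HCT116 WT B libraries, with bounds of at least 97.0-fold, 91.5-fold and 16.3-fold. ZNF569 was at 7.20, 9.87 and 8.47 CPM in A549 WT B and at 0.0954, 0.0623 and 0 CPM in HCT116 WT B. ZNF461, also known as a gonadotropin-inducible gene, was at 7.22, 9.52 and 9.43 CPM in A549 and at 0.572, 0.623 and 0.765 CPM in HCT116, a log2(fold change) of 3.99 ± 0.19 (SE, adjusted p = 2.17e-06 by edgeR quasi-likelihood, Benjamini-Hochberg adjusted).

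Other members were expressed in both lines at similar or moderately different levels. ZFP30 was at 13.6, 18.1 and 14.2 CPM in A549 WT B and at 8.70, 8.07 and 8.68 CPM in HCT116 WT B. ZNF850, ZNF565, ZNF540 and ZNF573 had log2(fold changes) of 0.17, 0.26, 0.07 and 0.54 and were not called. ZNF607 was at 4.55, 2.34 and 1.44 CPM in A549 and at 6.71, 9.01 and 6.74 CPM in HCT116, with a log2(fold change) of -1.13 ± 0.43 (adjusted p = 0.0549 by edgeR quasi-likelihood). That call was lost without library S21 (-1.01) or S22 (-0.80) of A549 or S13 of HCT116 (-0.96). ZNF146, called higher in A549 with a log2(fold change) of 1.02, lost its call under 7 of 13 alternatives. Its mean was 61.5 CPM in A549 WT B, 36.6 CPM in HCT116 WT B and 65.7 CPM in HCT116 WT A. ZNF566 was at 22.5 to 25.9 CPM in A549 WT B and at 11 to 11.8 CPM in HCT116 WT B, ZNF567 at 12.9 to 18.5 and 8.26 to 8.33 CPM, and ZNF527 at 8.65 to 11 and 2.73 to 3.43 CPM. All were called higher in A549, with log2(fold changes) of 1.38, 1.18 and 1.97. Per kilobase of exon, ZNF146 had the highest level of the cluster in either wild type, at 14.8 CPM per kb in A549 and 8.82 CPM per kb in HCT116. It was followed by ZNF260 (5.72 CPM per kb) and HKR1 (4.89 CPM per kb) in A549, and by HKR1 (2.94 CPM per kb) in HCT116.

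**Figure D1:**
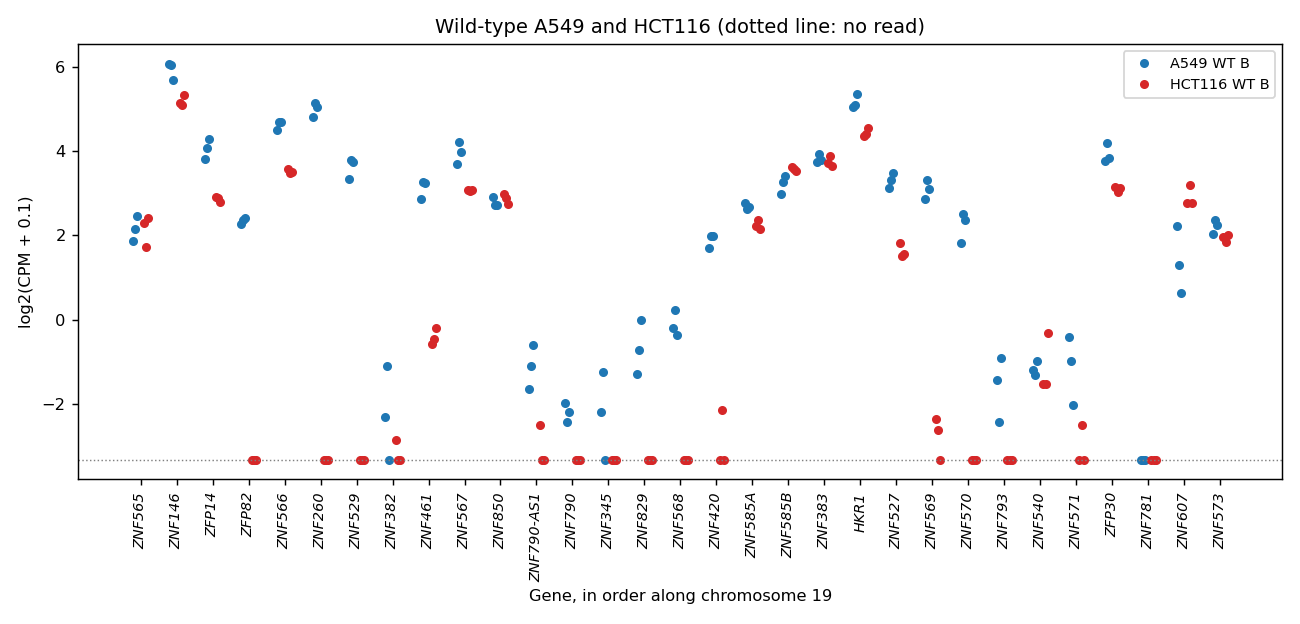
Level of each of the 31 genes, in order along chromosome 19, in wild-type A549 (blue) and HCT116 (red), as log2(CPM + 0.1); each point is 1 library and the dotted line marks no read. ZNF260 and ZNF529 lie far above the line in A549 and on it in all 3 HCT116 libraries, while ZNF146 and HKR1 are high in both lines.

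Leaving out S8 and S9, 5 members, ZNF529, ZNF345, ZNF568, ZNF570 and ZNF793, were at 0 in all 13 HCT116 libraries, and ZFP82, ZNF382 and ZNF829 had at most 3 counts in any of them. The KO libraries are among those that picked out these 8 genes. Of the other members, ZNF260 had 7 and 4 counts in MSTRG.4401.1 KO libraries S10 and S15, and ZNF790 had 5 counts in S10 and 7 in MSTRG.34636.7 KO library 3A. A count of 0 allows a level of up to 0.0293 to 0.0825 CPM in these libraries. In S8 and S9 the same 8 genes were at 0.148 to 15.4 CPM.

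**Figure D2:**
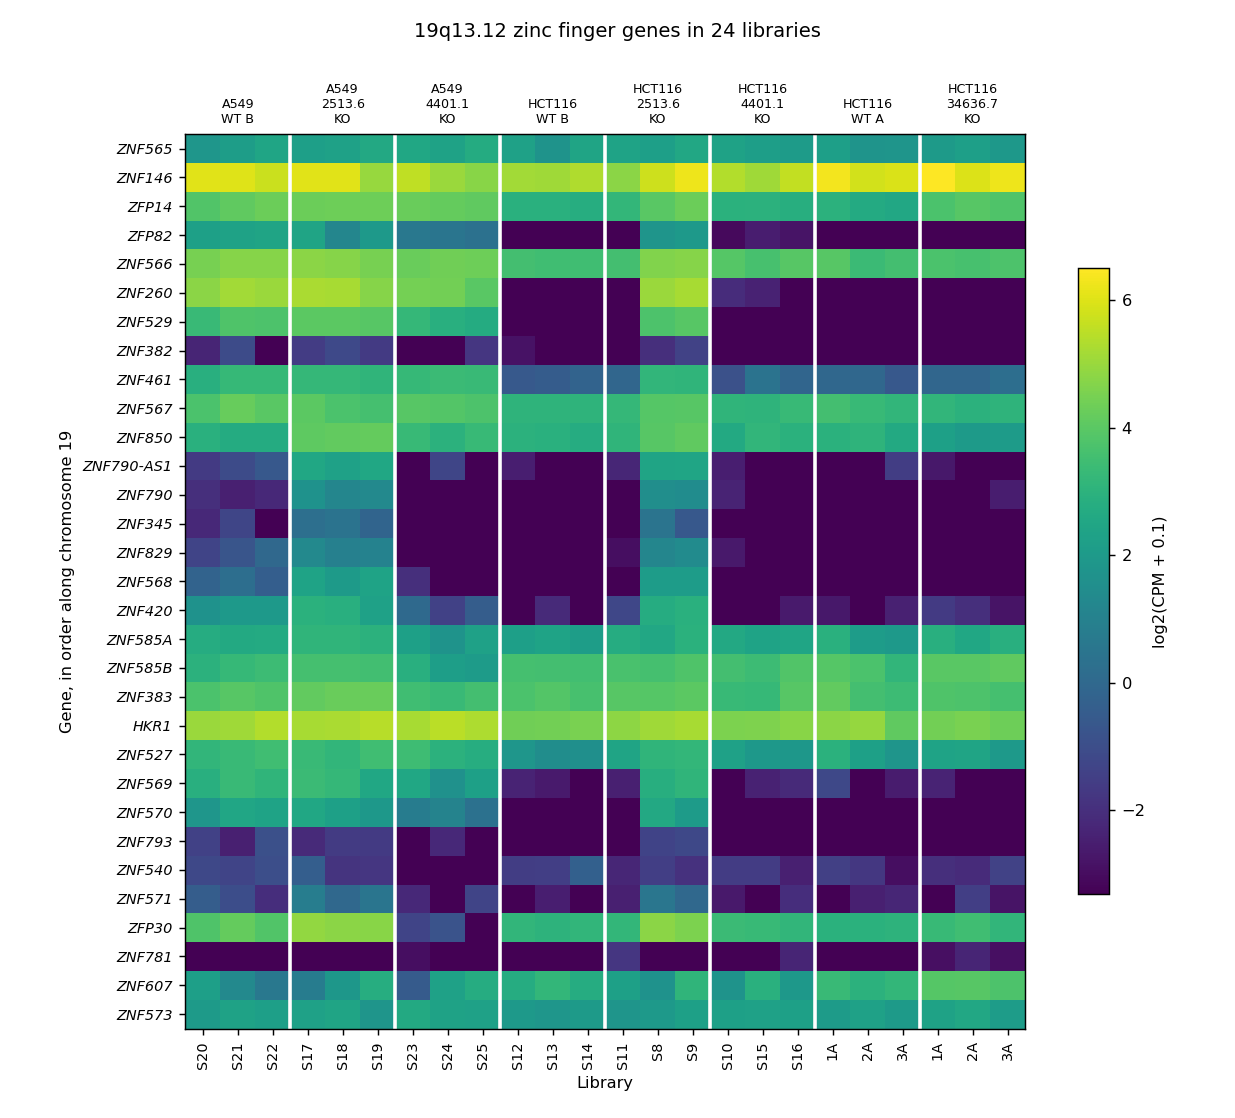
Levels of the 31 genes (rows, in order along chromosome 19) in the 24 libraries (columns, by group), coloured by log2(CPM + 0.1), with the darkest colour for no read. S8 and S9 have the pattern of the A549 libraries, and the stretch from ZNF790-AS1 to ZNF420 is brightest in S8, S9 and A549 MSTRG.2513.6 KO.

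In A549 MSTRG.4401.1 KO, 7 of the 26 members tested fell and none rose. Over all genes tested 4.32% fell and 15.4% were called in either direction. The genes that fell were ZFP82, ZNF829, ZNF568, ZNF420, ZNF570, ZNF540 and ZFP30. The median log2(fold change) of the tested members was -0.78, against 0.12 for all genes tested. Of the members 19 of 26 were negative, and of all genes tested 11070 of 24979. The comparison asks what removing the DBD of MSTRG.4401.1 did in A549, and its control libraries are those of the comparison that drew attention to the cluster. The KO libraries were the shallowest of the series, at 25799359 to 33205007 counts, and mitochondrial genes took 3.499% to 7.87% of their counts, against 1.96% to 2.37% in WT B. The part of depth and mitochondrial share in these differences was not tested.

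ZFP30 had the most negative log2(fold change) among the called members that still had reads in the KO. It was at 13.6, 18.1 and 14.2 CPM in WT B and at 0.301, 0.465 and 0 CPM in KO libraries S23, S24 and S25, a log2(fold change) of -5.97 ± 0.56 (SE, adjusted p = 0.000335 by edgeR quasi-likelihood, Benjamini-Hochberg adjusted). No KO library came near a wild-type one, and ZFP30 stayed at 7.54 to 11 CPM in the 13 HCT116 libraries that leave out S8 and S9. The coding genes beyond it, ZNF607 (log2(fold change) 0.43, adjusted p = 0.674 in the same edgeR test) and ZNF573 (0.14, adjusted p = 0.591) were not called.

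In the middle of the cluster, the genes that were low in wild type were lower or at 0 in the KO. ZNF829 was at 0.306, 0.504 and 0.890 CPM in WT B and had no read in the 3 KO libraries, at least 5.30-fold lower. Its head-to-head neighbour ZNF568 was at 0.764, 1.08 and 0.674 CPM in WT B and at 0.151, 0 and 0 CPM in the KO (log2(fold change) -3.92 ± 0.86, adjusted p = 0.0106 by edgeR quasi-likelihood). ZNF420 was at 3.14, 3.88 and 3.83 CPM in WT B and at 0.934, 0.271 and 0.648 CPM in the KO, with a log2(fold change) of -2.60 ± 0.38 (adjusted p = 0.00237 by edgeR quasi-likelihood). These 3 genes did not overlap between KO and wild type. ZNF790 and ZNF345 also had no read in the KO, but their wild-type levels, 0.0841 to 0.153 CPM and 0 to 0.32 CPM, were too close to the 0.0903 to 0.116 CPM that 3 counts amount to there, and neither was tested. ZNF790-AS1 was at 0.221, 0.370 and 0.553 CPM in WT B and at 0, 0.310 and 0 CPM in the KO, which was not called.

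Toward the ends of the cluster, ZFP82 was at 4.72, 5.01 and 5.20 CPM in WT B and at 1.42, 1.32 and 1.18 CPM in the KO (log2(fold change) -2.01 ± 0.20, adjusted p = 0.000459 by edgeR quasi-likelihood). ZNF570 was at 3.43, 5.57 and 5.08 CPM in WT B and at 1.63, 2.02 and 1.18 CPM in the KO (-1.62 ± 0.27, adjusted p = 0.00375 in the same edgeR test). ZNF540, which shares exon bases with ZFP30, was at 0.340, 0.303 and 0.409 CPM in WT B and had no read in the KO, at least 3.28-fold lower. Each of these 3 genes was lower in every KO library than in every WT B library. In all, 17 of the 26 tested members did not overlap between the groups, where 48.0% of all genes tested did not. The count of members called was 2 when 10 counts were required in every library, a filter that drops genes which fell to few reads, and 12 when all A549 libraries entered one fit. Leaving out a KO or WT B library in turn gave 7 to 10 members.

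In A549 MSTRG.2513.6 KO, the comparison that drew attention to the cluster, neighbouring members had the largest log2(fold changes). These were ZNF790-AS1, ZNF790, ZNF345, ZNF829 and ZNF568. Of 30 members tested, 5 passed the thresholds, all higher, namely ZNF850, ZNF790-AS1, ZNF790, ZNF829 and ZNF568. Over all genes tested, 1.13% were called higher and 2.92% in either direction. Because this comparison chose the cluster, these counts are a description and nothing is read from them. ZNF790-AS1 was at 5.67, 4.82 and 5.63 CPM in KO libraries S17, S18 and S19 and at 0.221, 0.370 and 0.553 CPM in WT B, a log2(fold change) of 3.85 ± 0.30 (SE). ZNF790, on the opposite strand, was at 3.08, 2.17 and 2.33 CPM in the KO and at 0.153, 0.0841 and 0.120 CPM in WT B, a log2(fold change) of 4.38 ± 0.35. In both genes every KO library lay above every wild-type library.

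The next genes along the chromosome had the same order of groups. ZNF345 was at 1.11, 1.24 and 0.792 CPM in the KO against 0.119, 0.32 and 0 CPM in WT B and did not pass the thresholds. ZNF829 was at 2.33, 1.85 and 1.97 CPM against 0.306, 0.504 and 0.890 CPM (log2(fold change) 1.89 ± 0.37), a call that was lost without S18 of the KO or S21 of WT B. ZNF568 was at 5.06, 3.98 and 5.07 CPM against 0.764, 1.08 and 0.674 CPM (2.47 ± 0.25). From ZNF790-AS1 to ZNF420, all 6 genes were higher in every KO library than in every WT B library, and ZNF420 (7.68, 7.30 and 4.86 CPM against 3.14, 3.88 and 3.83 CPM) stayed under the fold-change threshold with 0.88.

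ZNF850, the neighbour of ZNF790-AS1 on the other side, was at 16.8, 17.5 and 18.2 CPM in the KO and at 7.42, 6.51 and 6.45 CPM in WT B (1.36 ± 0.15). Beyond these genes the log2(fold changes) ran from -0.40 for ZFP82 to 0.69 for ZNF382 on the side of ZNF565. On the side of ZNF573 they ran from -0.45 for ZNF793 to 1.66 for ZNF571 (1.71, 0.891 and 1.33 CPM against 0.645, 0.404 and 0.144 CPM). ZFP30 was at 30.2, 27.6 and 26.7 CPM against 13.6, 18.1 and 14.2 CPM, with a log2(fold change) of 0.88. Over the tested members 13 did not overlap between the groups, against 22.9% of all genes tested, and 24 of 30 were positive with a median of 0.30. Over all genes tested, 11932 of 25666 were positive, with a median of -0.03. Nearby, 28 of 42 genes were positive in the 1 Mb on the ZNF565 side (median 0.11). On the ZNF573 side 19 of 21 were (median 0.20). So were 116 of 164 other chromosome 19 ZNF and ZFP genes (median 0.12).

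**Figure D3:**
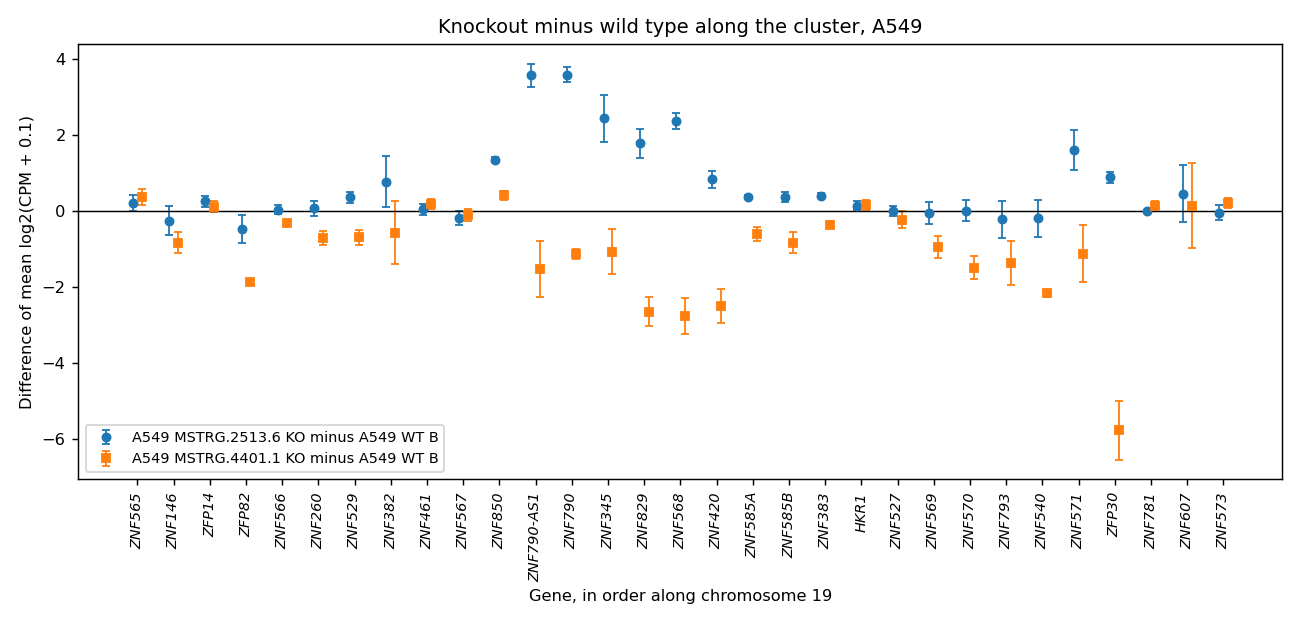
Difference between the mean log2(CPM + 0.1) of each A549 KO (n = 3) and of A549 WT B (n = 3) for the 31 genes in order along chromosome 19, with the SE of the difference as bars; circles are MSTRG.2513.6 KO and squares MSTRG.4401.1 KO, and both use the same WT B libraries. The circles peak at ZNF790-AS1 and ZNF790, and the lowest square is ZFP30.

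The A549 KOs were also set against each other, which is given as a description because it shares libraries with both comparisons above. Of the 27 members tested, 15 were higher in MSTRG.2513.6 KO than in MSTRG.4401.1 KO and none was lower, where 5.75% of all genes tested were called higher and 16.6% in either direction. ZFP30 differed by 6.91 ± 0.54 (SE) on the log2 scale and ZNF568 by 6.43 ± 0.66. ZNF790 was at least 23.6-fold, ZNF829 at least 19.2-fold and ZNF345 at least 9.79-fold higher in MSTRG.2513.6 KO, the other KO having no read of any of them. HKR1 (36.6, 38.4 and 43.7 CPM in MSTRG.2513.6 KO and 37.2, 44.8 and 38.6 CPM in MSTRG.4401.1 KO) and ZNF565 (4.52, 4.77 and 6.03 CPM and 5.66, 4.92 and 6.48 CPM) overlapped between the KOs.

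Genes around the members were described in the same fits. Inside the interval, 9 other annotated genes were in the files. In A549 MSTRG.2513.6 KO, 2 of the 5 tested were called, both higher and both noncoding, LINC00665 at 3.28 ± 0.65 CPM (SD, n = 3) against 0.635 ± 0.085 CPM and ZNF571-AS1 at 0.833 ± 0.316 CPM against 0.156 ± 0.052 CPM. In A549 MSTRG.4401.1 KO, 1 of 4 was called, ZNF529-AS1, lower at 1.85 ± 0.39 CPM against 3.69 ± 0.52 CPM. In the 1 Mb on the ZNF565 side the MSTRG.4401.1 KO called 4 of 41 genes higher and 1 lower, and in the 1 Mb on the ZNF573 side 1 of 21 higher and 2 lower. Of all genes tested, 4.32% were called lower and 15.4% in either direction. The median log2(fold change) was 0.07 on the ZNF565 side, -0.42 on the ZNF573 side and -0.78 for the tested members. An unadjusted p under 0.05 in edgeR's quasi-likelihood test was found for 17 of 41, 17 of 21 and 15 of 26 of these genes. Over all genes tested the count was 11322 of 24979. Of the other chromosome 19 ZNF and ZFP genes, 6 of 156 were called higher and 15 lower in that KO, with a median log2(fold change) of -0.07. For ZNF and ZFP genes of other chromosomes the counts were 5 and 10 of 247, with a median of 0.05.

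Of 33 KRAB corepressor and DNA methylation genes, 0 were called in either A549 KO against WT B by edgeR's quasi-likelihood test. Over all genes tested, 2.92% and 15.4% were called in the KOs of MSTRG.2513.6 and MSTRG.4401.1. An unadjusted p under 0.05 in that test was found for 4 and 18 of the 33, in the same order. Over all genes tested, 4300 of 25666 and 11322 of 24979 had such a p, in the same order of KOs. TRIM28, the corepressor itself, stood at 722 ± 134 CPM in WT B (SD, n = 3), at 702 ± 137 CPM in the MSTRG.2513.6 KO and at 560 ± 81.2 CPM in the KO of MSTRG.4401.1. SETDB1 was at 30.1 ± 2.71, 28.5 ± 9.29 and 40.9 ± 3.64 CPM in the same order. DNMT3B, a de novo DNA methyltransferase, was at 35.4 ± 3.33, 19.6 ± 2.10 and 60.3 ± 7.34 CPM, and DNMT1, the maintenance methyltransferase, at 194 ± 11.1, 184 ± 12.7 and 165 ± 6.23 CPM. DNMT3B thus differed in opposite directions from wild type, by -0.86 ± 0.12 and 0.69 ± 0.12 on the log2 scale, both within the fold-change threshold. In MSTRG.4401.1 KO, TRIM28, SETDB1, DNMT1 and DNMT3B all had an adjusted p under 0.1 by edgeR quasi-likelihood. In MSTRG.2513.6 KO only DNMT3B of these did. Between the A549 KOs 2 of 33 were called, DNMT3B (-1.48 ± 0.15) and HELLS (-1.02 ± 0.33). Both were lower in MSTRG.2513.6 KO, where 16.6% of all genes tested were called in either direction. DNMT3B was also called lower in HCT116 WT A than in WT B, by -1.20 ± 0.20. A link between its level and those of the cluster was not tested.

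In HCT116 MSTRG.2513.6 KO, the values followed the library rather than the group. ZNF790-AS1 was at 0.11 CPM in S11 and at 5.25 and 5.37 CPM in S8 and S9, and ZNF568 was at 0 CPM in S11 and at 4.26 and 4.18 CPM in S8 and S9. ZNF850 was at 8.42, 15.2 and 16.9 CPM in S11, S8 and S9, and ZFP30 at 9.05, 27.4 and 23.5 CPM. In each of these genes S11 lay near the HCT116 wild types, and S8 and S9 lay near A549 MSTRG.2513.6 KO, above A549 WT B. No member of 17 tested was called against WT B by edgeR's quasi-likelihood test, with 10 at an unadjusted p under 0.05. Of all genes tested, 5456 of 26374 had such a p and 0.933% were called. DESeq2 called 17 members, and 22 were called without S11, from more genes tested. Without S8 and S9 the KO is S11 alone, assumed to vary like WT B. None was called then, which says nothing about stability, and the median log2(fold change) of the members was 0.10, against 0.85 with all libraries.

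**Figure D4:**
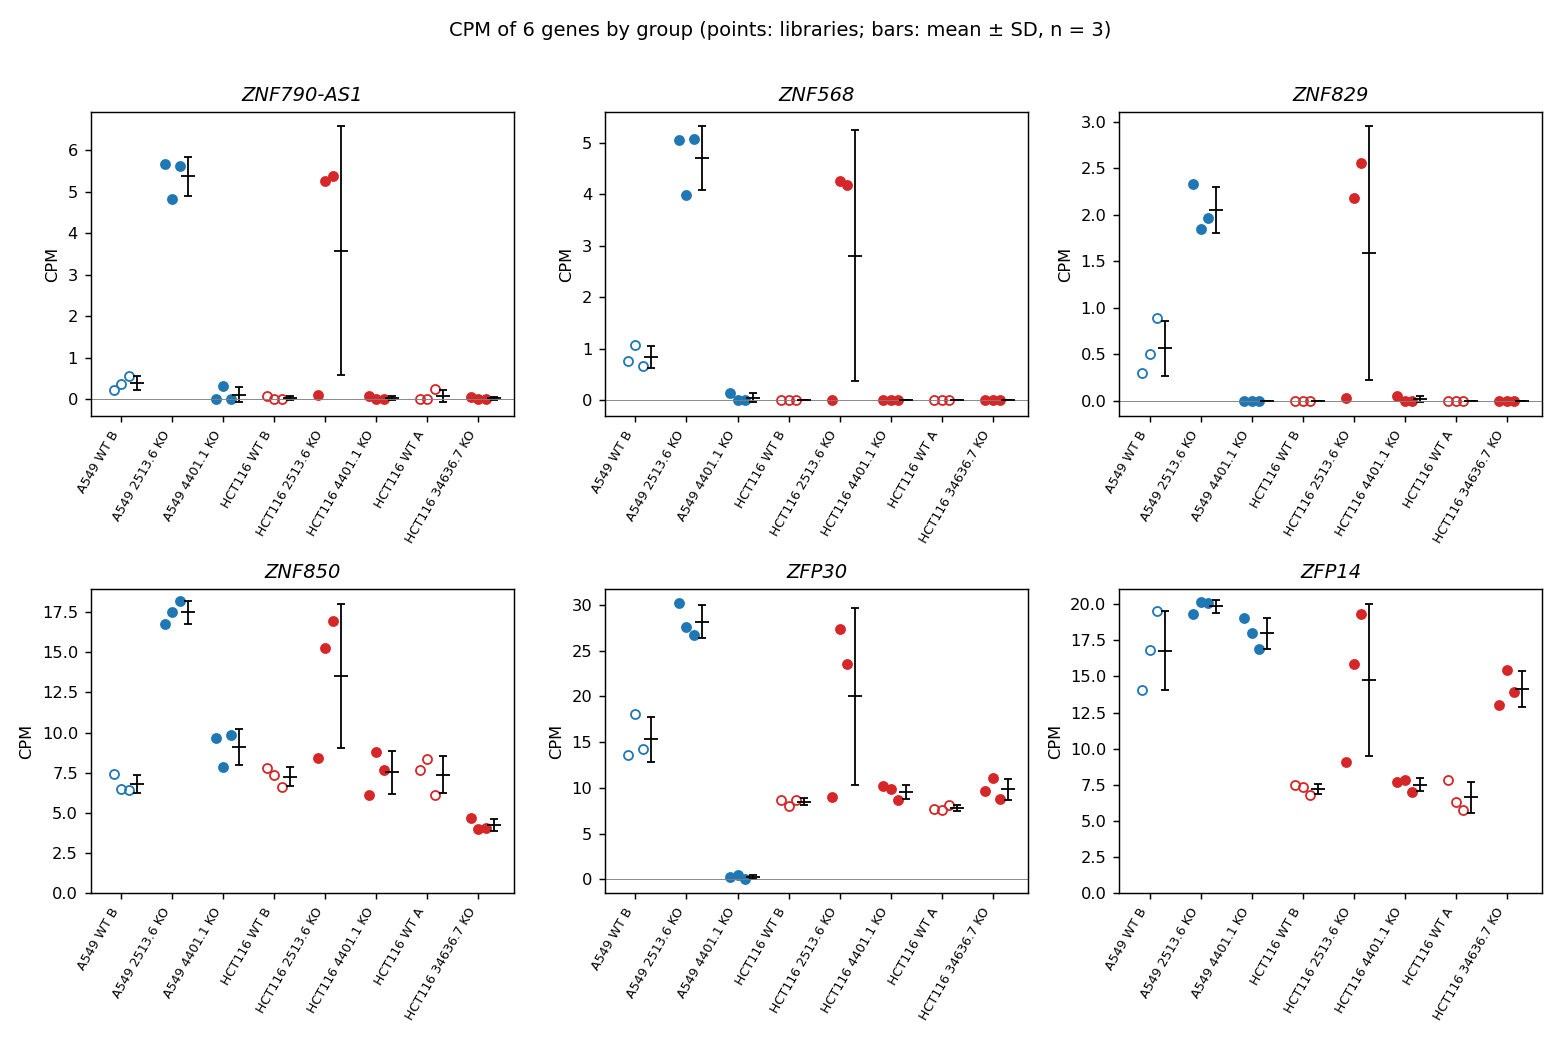
CPM of 6 genes in the 8 groups; points are libraries (blue A549, red HCT116, open for wild type) and the black bar beside them is the mean ± SD (n = 3). In HCT116 MSTRG.2513.6 KO, 1 library (S11) lies with the other HCT116 libraries and the other 2 (S8 and S9) lie at the level of A549 MSTRG.2513.6 KO, and ZFP30 is near 0 in A549 MSTRG.4401.1 KO alone of the 8 groups.

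In HCT116 MSTRG.4401.1 KO, no member was called. Of 16 tested by edgeR's quasi-likelihood test, 4 were at an unadjusted p under 0.05, against 6836 of 26615 over all genes tested. Of all genes tested 2.62% were called, and leaving out S15 of the KO gave 1 called member. Of the 7 members that fell in this KO of A549, ZFP30 and ZNF540 were tested in HCT116. The others, ZFP82, ZNF829, ZNF568, ZNF420 and ZNF570, were not. Their means in HCT116 WT B were 0 to 0.0416 CPM, so a fall could not be seen there. ZFP30 was at 10.2, 9.82 and 8.70 CPM in KO libraries S10, S15 and S16 and at 8.70, 8.07 and 8.68 CPM in HCT116 WT B, a log2(fold change) of 0.16 ± 0.11 (SE, adjusted p = 0.429 in the same edgeR test). ZNF146 was at 41.1, 34.5 and 48.7 CPM and at 35.4, 34.3 and 40.0 CPM. The summed level of the 31 genes was 163 ± 12.3 CPM (SD, n = 3) in the KO and 150 ± 2.54 CPM in WT B, against 226 ± 16.4 CPM and 306 ± 19.5 CPM for the same KO and wild type in A549.

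The effect of MSTRG.4401.1 KO differed between the lines for 10 of 26 members tested in an interaction model at FDR < 0.1, all of them lower in A549, where 15.4% of all genes tested differed in that direction and 26.9% in either. For ZFP30, the difference of the effects was -6.17 ± 0.56 on the log2 scale (SE, adjusted p = 2.80e-05 by edgeR quasi-likelihood, Benjamini-Hochberg adjusted). ZNF146 had -1.09 ± 0.27, ZNF585B -0.95 ± 0.27, ZNF585A -0.92 ± 0.27 and ZNF566 -0.75 ± 0.15 in that model. ZNF585A and ZNF585B, closely similar paralogs side by side whose reads may have been split between them, were at 6.69, 6.09 and 6.28 CPM and at 7.76, 9.47 and 10.5 CPM in A549 WT B, and at 4.64, 3.18 and 4.84 CPM and at 7.17, 4.46 and 4.12 CPM in the A549 KO. In both genes all KO libraries lay below all wild-type libraries. For ZNF527 the difference was lost under 8 of 15 alternatives. ZFP82, ZNF260 and ZNF829, 3 of the 10, had no read in HCT116 WT B and at most 0.136 CPM in the HCT116 KO. HCT116 thus gives no effect to compare for them, which leaves 7 genes with reads in both wild types. The 26 also held uncalled members at 0 in both HCT116 groups, ZNF529, ZNF568 and ZNF570 among them. The count of 10 of 26 therefore includes members for which HCT116 could show no effect.

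In HCT116 MSTRG.34636.7 KO, the single member called was ZFP14. It was at 13, 15.5 and 13.9 CPM in KO libraries 1A, 2A and 3A and at 7.86, 6.30 and 5.75 CPM in WT A, a log2(fold change) of 1.09 ± 0.19 (SE, adjusted p = 0.0506 by edgeR quasi-likelihood, Benjamini-Hochberg adjusted). Of all genes tested 0.729% were called higher and 1.34% in either direction, and 16 members were tested. All KO libraries lay above all WT A libraries, and also above the 6.82 to 7.46 CPM of HCT116 WT B, but the call was lost without any 1 of the KO libraries and with WT B as the control (0.95). ZNF850 moved the other way in value, at 4.68, 3.97 and 4.07 CPM in the KO and 7.69, 8.35 and 6.11 CPM in WT A, and was not called (-0.80 ± 0.19, adjusted p = 0.116 in the same edgeR test). ZNF607 was at 14.8, 15.4 and 13.3 CPM in the KO and at 9.94, 7.80 and 9.06 CPM in WT A (0.68 ± 0.17, adjusted p = 0.131). Neither gene overlapped between the groups, a property of 23.4% of all genes tested. Inside the interval LINC00665 was called higher, at 1.30 ± 0.22 CPM (SD, n = 3) against 0.544 ± 0.040 CPM.

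The HCT116 wild types, WT A and WT B, gave a measure of how far unedited libraries differ. Of all genes tested, 7.06% were called and 6021 of 27280 had an unadjusted p under 0.05 in edgeR's quasi-likelihood test. Of the 16 members tested, none was called and 2 had such a p. ZNF146 had the lowest p, at 80.4, 56.2 and 60.6 CPM in WT A and 35.4, 34.3 and 40.0 CPM in WT B (log2(fold change) 0.84 ± 0.17, adjusted p = 0.018 in that test), under the fold-change threshold. Its WT A libraries all lay above its WT B libraries, and it was at 90.3, 63.7 and 76.8 CPM in MSTRG.34636.7 KO.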

How the data were processed

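Whole-number read counts per gene symbol, deposited by the authors without normalization, were used for 24 libraries. Per the labels and the submitters' processing notes, libraries were rRNA-depleted and strand-specific, and reads were trimmed with Trim Galore 0.6.6, checked with FastQC 0.11.9 and aligned to hg38 with HISAT2 2.2.1. StringTie quantified genes, according to the study's methods. Not given in the sources used here are the annotation release, how whole counts were made, and whether counting was stranded. All libraries share 60641 symbols, and 3 more, listed in some libraries only, were left out. Of the members, 30 were matched by symbol and 1 (HKR1, listed as ZNF875) by a RefSeq synonym. Positions and exon lengths came from GENCODE and promoter windows from RefSeq.

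CPM is the count scaled to a library total of 1000000. Each comparison was fitted on its own groups with edgeR 4.0.16 (limma 3.58.1, R 4.3.3), with TMM, filterByExpr, glmQLFit and glmQLFTest, and Benjamini-Hochberg adjustment over all genes tested. Calls required FDR < 0.1 together with |log2(fold change)| > 1, as in the study, and for the interaction FDR < 0.1 alone. Fitted fold changes against a group without reads are replaced by bounds with 3 counts in each library, which cover counting error only, because reads lack molecular identifiers and may be copies of one molecule. With 3 against 3 libraries an exact permutation test of 1 gene cannot go below p = 0.1, so none was used. The alternatives were DESeq2 1.42.0, upper-quartile normalization, other filters and thresholds, all libraries of a line in one fit, the other HCT116 wild type, each library left out, and the replicate number as a block. The replicate numbers 1 to 3 of the wild types and of MSTRG.34636.7 KO did not pair the libraries (r of -0.0647 to 0.0317). The tests were tried on simulated counts. Members and gene lists were chosen with earlier results of these data known. Every member is named. The planned rule gave values per library to ZNF790-AS1, ZNF790 and members called outside the comparison of A549 MSTRG.2513.6 KO with WT B, limited to the 14 with the largest |log2(fold change)|, and ranges and counts to the rest. The text goes beyond that rule. It also gives values per library for other members, HKR1 and ZNF565 among them, which were called in no comparison.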

Additional observations from a re-analysis of the deposited data

Results flagged for a closer look

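The effect of MSTRG.4401.1 KO differed between A549 and HCT116 for 10 genes of the cluster, by the interaction term of an edgeR quasi-likelihood fit (Benjamini-Hochberg adjusted). The values are the effect in A549 minus that in HCT116 on the log2 scale. ZFP30 had -6.17 (adjusted p = 2.80e-05), with effects of -5.97 in A549 and 0.16 in HCT116. ZNF566 had -0.75 (adjusted p = 0.00454), ZNF146 -1.09 (adjusted p = 0.0151), ZNF585B -0.95 (adjusted p = 0.0273), ZNF585A -0.92 (adjusted p = 0.034) and ZNF527 -0.75 (adjusted p = 0.0698) in the same edgeR test. The call of ZNF527 was lost under 8 of 15 alternatives, FDR < 0.05 and upper-quartile normalization among them, and without S24, S25, S21, S10, S13 or S14. These 5 genes had negative effects in A549 (-0.39, -0.90, -0.89, -0.67 and -0.29) and positive ones in HCT116 (0.32, 0.17, 0.02, 0.21 and 0.42). ZNF540 had -6.09 (adjusted p = 0.0217), with no read in the A549 KO and an effect of -1.12 in HCT116, so its size depends on how the fit treats zeros. The fitted values of ZFP82 (-6.03), ZNF260 (-5.63) and ZNF829 (-10.9) set the A549 effect against no read in HCT116 WT B and a few in the HCT116 KO. They give no measure of a difference between the lines, and without them 7 genes are left. The A549 KO libraries were also shallower and higher in mitochondrial reads than the others, and the part of that in these differences was not tested.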

How the results depend on the processing

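Among the 55 calls of single members, 44 were kept under every alternative that could be fitted, and no call or count reversed its direction. In A549 MSTRG.4401.1 KO the 7 calls became 2 when 10 counts were required in every library, 12 with all A549 libraries in one fit and 15 without a fold-change threshold. The filter of 10 counts removes genes at few reads, and it also left 7 of 17 calls between the wild types of A549 and HCT116 and 7 of 15 between the A549 KOs. In HCT116 MSTRG.2513.6 KO the 0 calls became 17 with DESeq2, 10 with all HCT116 libraries in one fit and 1 with the filter, each with S8 and S9 included. For HCT116 MSTRG.34636.7 KO, ZFP14 was lost, leaving 0 calls, with all HCT116 libraries in one fit, S8 and S9 included, and at FDR < 0.05. WT A against WT B gave 1 call without a fold-change threshold. Where not stated above, the cause was not tested. Leaving out 1 library at a time gave 4 to 6 calls in A549 MSTRG.2513.6 KO, 7 to 10 in A549 MSTRG.4401.1 KO, 0 to 22 in HCT116 MSTRG.2513.6 KO (22 without S11), 0 to 1 in HCT116 MSTRG.4401.1 KO, MSTRG.34636.7 KO and WT A against WT B, 16 to 20 between the wild types of the lines, 13 to 17 between the A549 KOs and 8 to 10 for the interaction.

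With the replicate number as a block, MSTRG.34636.7 KO had 0 calls, WT A against WT B 0 and the wild types of the lines 17; the numbers do not pair the libraries, and it changed no other call. Of 248 group means, 20 moved by over 1 SD when CPM was scaled by TMM. At these depths members under about 0.1 CPM could not be told from 0.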

Other observations

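Zinc finger genes elsewhere on chromosome 19 also had levels near 0 in A549 MSTRG.4401.1 KO. ZNF724, ZNF738 and ZNF44 had no read in the KO and 1.43 ± 0.41, 0.745 ± 0.191 and 0.337 ± 0.066 CPM (SD, n = 3) in A549 WT B. ZNF799 was at 0.0388 ± 0.067 CPM in the KO and at 3.497 ± 0.293 CPM in WT B. All 4 were called lower by edgeR's quasi-likelihood test, and none is a member of the 19q13.12 cluster. They are among 15 called lower and 6 called higher of 156 tested, where 4.32% of all genes were called lower. In A549 MSTRG.2513.6 KO, 4 of 164 other chromosome 19 zinc finger genes tested were called, against 2.92% of all genes called in either direction. The 4 were higher, namely ZNF136 (3.94 ± 0.53 CPM against 1.37 ± 0.46 CPM), ZNF880 (1.12 ± 0.18 CPM against 0.0811 ± 0.0997 CPM), ZNF808 (1.02 ± 0.16 CPM against 0.106 ± 0.097 CPM) and ZNF528 (0.221 ± 0.069 CPM against 0.00561 ± 0.00971 CPM). In HCT116 MSTRG.34636.7 KO, ZNF426 was at 0.680 ± 0.123 CPM against 7.10 ± 2.50 CPM in WT A, and ZNF493 at 1.81 ± 0.19 CPM against 6.18 ± 1.79 CPM, both called lower. These were the 2 called of 163 tested, against 1.34% of all genes.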
